A study of Mus musculus with 9 samples.

Results

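Pericytes and vascular smooth muscle cells are the contractile cells that wrap blood vessels, and the genes that build or mark them are described here in the stromal vascular fraction (SVF) of mouse fat after surgical priming. The list holds 29 genes. A probe set of the array was taken for a gene when its annotation gave exactly 1 symbol, equal to the present or an older symbol of that gene, and 61 probe sets measured the 29 genes. Of the 29 genes, 25 could be tested, among 11796 genes tested of 18193 named on the array. The other 4 genes, Actg2, Cnn1, Cspg4 and Lmod1, had no probe set called present on all 3 arrays of any day.

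SVF is the mix of cells left when digested fat is freed of its fat cells. It was prepared from the inguinal fat of wild type Balb/c mice aged 10 weeks. Priming is the study's word for a surgical injury of the fat pad combined with ischemia, and SVF was taken on day 0, day 1 and day 3 after it. The study calls day 0 nonprimed, a word its methods use for SVF of sham-operated mice, whose skin alone was cut and closed. The labels do not say whether the mice of the day 0 arrays had that sham operation or none, so whether skin surgery is part of each change cannot be told apart. Each day had 3 arrays from 3 individual mice, and all 9 mice shared the strain, the genotype and the tissue. The labels name the injury but no separate injured or ischemic group, so the effects of the injury, the ischemia and the time since surgery cannot be told apart in these arrays.

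A smooth muscle cell shortens when myosin pulls on thin filaments of smooth muscle actin. Myosin light chain kinase starts the pull by phosphorylating the light chain, and a phosphatase ends it. Nitric oxide relaxes the cell through soluble guanylate cyclase and cyclic GMP. Pericytes share part of this machinery and are usually told by the receptor Pdgfrb, the proteoglycan NG2 (Cspg4) and Rgs5. Serum response factor, together with its coactivator myocardin, switches on many contractile genes through a DNA element called the CArG box. Several of these genes, Acta2 and Tagln among them, are also expressed by wound myofibroblasts.

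The values are MAS5 signals in arbitrary units, a linear brightness measure which the deposited files pair with a call of whether the transcript was detected (present, marginal or absent). Each array had been scaled to a trimmed mean of 500. Counting any probe set of a gene, used or not, 24 to 27 of the 29 genes were called present on each day 0 array. The counts were 24 to 25 on each day 1 array and 24 to 26 on each day 3 array, so the labelled tissue carried these markers on all days. Signals over all probe sets correlated at 0.971 to 0.988 between arrays of the same day and at 0.901 to 0.971 between arrays of different days. The median gene of the array moved by -0.13 on the log2 scale on day 1 against day 0 and by -0.03 on day 3 against day 0. In these bulk samples, fewer cells of a type and less RNA per cell cannot be told apart.

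More of these genes lost signal than gained it after priming. On day 1 against day 0, 2 of the 25 tested genes were higher and 13 were lower, against 10.8% of all tested genes called higher and 17.9% called lower. On day 3 against day 0, 5 were higher and 12 were lower, against 13.6% and 12.5% of all tested genes. On day 3 against day 1, 6 were higher and 2 were lower, against 9.67% and 4.54%. Calls needed an adjusted p under 0.05 in limma, with Benjamini-Hochberg adjustment over all genes tested, and every adjusted p below is of that kind unless another is named. By overlap alone, 2 of the 25 genes lay wholly above and 13 wholly below day 0 on day 1, beside 13.8% and 26.1% of all tested genes. On day 3 against day 0 these numbers were 7 and 12, beside 22.6% and 24.7%, and on day 3 against day 1 they were 6 and 4, beside 23.4% and 11.6%. The median change of the 25 genes was -0.48 on day 1 and -0.35 on day 3 against day 0, and 0.08 on day 3 against day 1, beside 0.09 for all genes in that last comparison. Centring each array on its median signal left 2 higher and 10 lower on day 1, where it brought the share of all genes called lower to 10.8%.

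The genes that were lower on both days numbered 10: the myosin genes Myh11, Myl9 and Mylk, the guanylate cyclase subunits Gucy1a1 and Gucy1b1, the channel subunit Abcc9, phospholamban (Pln), Synpo2, Mustn1 and Rgs5. Cald1 and Mcam were higher on both days. Acta2, Pdgfrb and Tpm2 were lower on day 1 and not called on day 3, whereas Ndufa4l2, Smtn and Tpm1 were higher, and Myocd and Ppp1r14a lower, on day 3 without a call on day 1. Ndufa4l2 was present on all 3 arrays of day 3 alone, and Myocd on all 3 of day 0 alone. Each of these 2 genes thus entered the test only through the day where it was brightest. Des, Flna, Higd1b, Kcnj8 and Tagln were called on neither day. Of the 40 calls in the 3 comparisons, 20 held under every alternative that kept the threshold and gave the gene a value. These were 20 alternatives for most genes, 9 of which left out 1 array, and 19 for Acta2, Myocd and Ndufa4l2. Fits on a gene's single dimmer probe sets were not among them. On such a probe set, the held calls of Abcc9 on day 1 and of Gucy1a1 and Mylk on both days were lost.

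**Figure D1:**
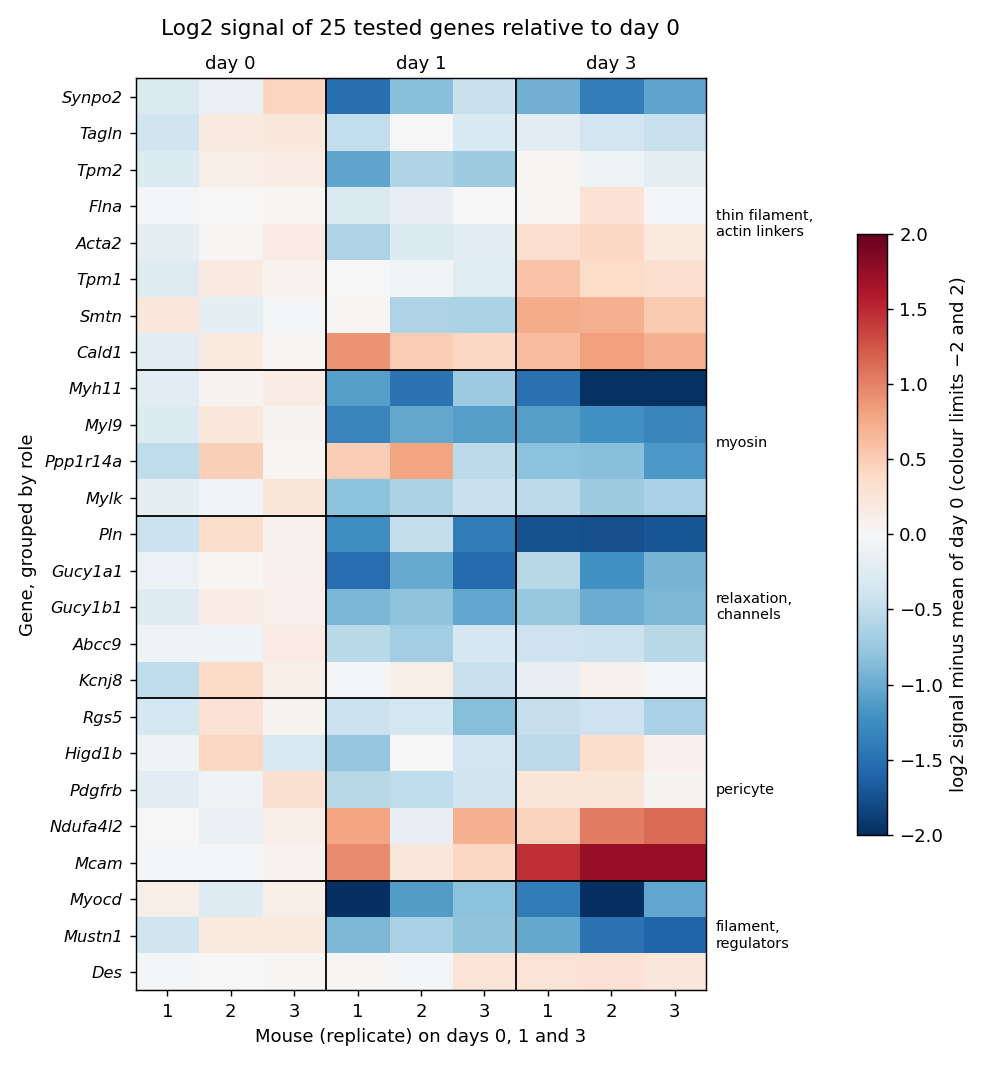
Log2 signal of the 25 tested genes (rows, grouped by role) on each of the 9 arrays (columns, 3 mice on each of days 0, 1 and 3), as the difference from the gene's day 0 mean. Colour runs from -2 (blue) to 2 (red). The myosin and relaxation genes are blue on days 1 and 3 apart from Ppp1r14a on day 1 and Kcnj8, and Cald1 and Mcam are red on both days.

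The myosin motor and the enzymes that set its phosphorylation comprised 4 genes, all tested. Counts by role, here and below, stand beside the shares of all tested genes given above. On day 1, 3 were lower than on day 0, and on day 3 all 4 were lower, with a median change of -0.87 on day 1 and -1.08 on day 3. Myh11, the smooth muscle myosin heavy chain and the most specific marker of mature smooth muscle, had signals of 1347, 1612 and 1721 on day 0, 726, 557 and 939 on day 1 and 550, 394 and 394 on day 3. The 3 days did not overlap. Myh11 changed by -1.10 ± 0.20 on the log2 scale on day 1 (SE, adjusted p = 0.00263) and by -1.82 ± 0.20 on day 3 (adjusted p = 8.31e-05), that is to 0.467 and 0.284 times the day 0 level. The further difference of -0.72 ± 0.20 on day 3 against day 1 (adjusted p = 0.0346) was lost when day 1 replicate 1 or 3 or day 3 replicate 2 or 3 was left out (adjusted p 0.0619 to 0.128), and without the detection filter, without the variance trend or with only the 6 arrays compared.

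Myl9, the regulatory light chain that myosin light chain kinase phosphorylates, had signals of 4213, 5971 and 5311 on day 0, 2043, 2515 and 2374 on day 1 and 2381, 2197 and 2039 on day 3. Every primed array lay below every day 0 array, and days 1 and 3 overlapped. The change was -1.15 ± 0.14 on day 1 (adjusted p = 0.00019) and -1.22 ± 0.14 on day 3 (adjusted p = 0.000112), with -0.06 ± 0.14 between days 3 and 1 (adjusted p = 0.791). Mylk, the kinase itself, had signals of 2549, 2790 and 3424 on day 0, 1638, 1869 and 2129 on day 1 and 2007, 1763 and 1851 on day 3. It was lower by the same amount on both days, -0.63 ± 0.14 (adjusted p = 0.0072 on day 1 and 0.0067 on day 3).

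Ppp1r14a, which encodes CPI-17, an inhibitor of myosin light chain phosphatase, was called on day 3 only. Its signals were 482, 956 and 705 on day 0, 963, 1192 and 480 on day 1 and 389, 385 and 310 on day 3. Days 0 and 1 overlapped, whereas all day 3 values lay below both. Day 3 differed from day 0 by -0.94 ± 0.31 (adjusted p = 0.0465) and from day 1 by -1.19 ± 0.31 (adjusted p = 0.0273). Both calls were lost when any 1 of several arrays was left out. The first was lost without day 0 replicate 2 or 3 or any day 3 array (adjusted p 0.0915 to 0.159). The second was lost without day 1 replicate 1 or 2 or any day 3 array (adjusted p 0.0725 to 0.107). The first was also lost under median centring, without the detection filter and without the variance trend.

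**Figure D2:**
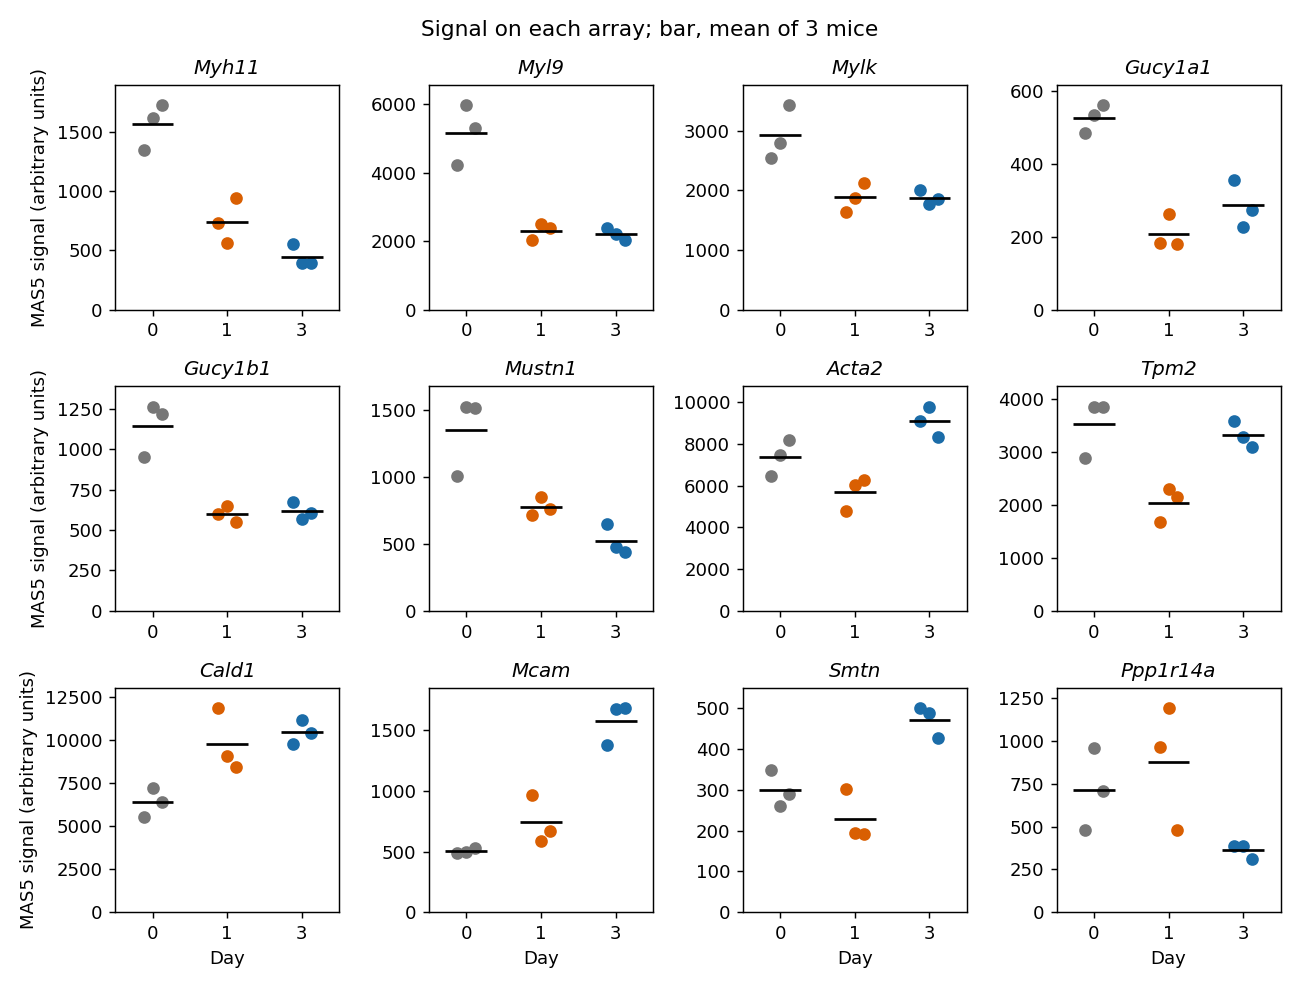
MAS5 signal (arbitrary units, linear axis from 0) on each array for 12 genes on days 0, 1 and 3; points are single mice and bars the mean of 3. The bar of Myh11 steps down on each day and that of Myl9 stays low after day 0, whereas Acta2 and Tpm2 dip on day 1 only and Cald1 and Mcam lie above day 0.

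Because Myl9 lost signal on both days while Acta2, smooth muscle actin, was called lower on day 1 only, the promoters of these classical serum response factor targets are shown. They are RefSeq sequences on GRCm38.p6, the 250 bases before the start site, 5′ to 3′, with capitals marking CArG boxes with at most 1 G or C in the core. Myl9 lies at chr2:156775214-156775463 on the plus strand and Acta2 at chr19:34255374-34255623 on the minus strand.
Myl9: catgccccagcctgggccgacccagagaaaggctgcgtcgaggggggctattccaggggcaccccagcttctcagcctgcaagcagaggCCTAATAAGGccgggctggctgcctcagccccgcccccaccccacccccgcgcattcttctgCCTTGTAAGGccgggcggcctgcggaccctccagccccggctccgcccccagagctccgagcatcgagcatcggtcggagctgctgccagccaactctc
Acta2: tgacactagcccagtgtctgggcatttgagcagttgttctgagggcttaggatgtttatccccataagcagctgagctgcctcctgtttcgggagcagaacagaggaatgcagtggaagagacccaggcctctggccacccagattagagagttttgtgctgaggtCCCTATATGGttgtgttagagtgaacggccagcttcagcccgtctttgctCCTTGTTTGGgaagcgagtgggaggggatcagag
With the start site counted as 0, the Myl9 boxes begin at -161 and -99 and the Acta2 boxes at -84 and -34.

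RefSeq promoters, read from 250 bases before to 50 after each start, were found for 22 of the 29 genes. No promoter was found for Actg2, Higd1b, Myh11, Myocd, Ndufa4l2, Pdgfrb and Tagln, so these genes were not searched. A CArG box with only A and T in its core lay in 1 of the 22, Myl9, against 1.81% of 27025 genes. With up to 1 G or C allowed, the box lay in 2 of 22, Acta2 and Myl9, against 11.3% of genes. CATTCC, the core of the MCAT element bound by TEAD factors, was searched on both strands and lay in 9 of 22, against 16.6% of genes. These 9 were Abcc9, Acta2, Cald1, Flna, Lmod1, Mustn1, Mylk, Smtn and Tpm1. They included genes that were lower on both days (Abcc9, Mustn1, Mylk), higher on both days (Cald1) and called on neither (Flna). A match describes these letters and not a bound site.

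Of the relaxation and ion channel genes, all 5 were tested and 4 were lower on day 1 and again on day 3, with medians of -0.93 and -0.88 over the 5. The exception was Kcnj8. Gucy1a1, the alpha subunit of soluble guanylate cyclase, the receptor for nitric oxide, had signals of 485, 535 and 561 on day 0, 183, 262 and 180 on day 1 and 357, 227 and 275 on day 3. Every primed array lay below every day 0 array. It changed by -1.36 ± 0.20 on day 1 (adjusted p = 0.000625) and by -0.90 ± 0.20 on day 3 (adjusted p = 0.00657). Gucy1b1, the beta subunit that carries the heme, had 951, 1262 and 1214 on day 0, 599, 648 and 549 on day 1 and 671, 570 and 606 on day 3. Its days 1 and 3 overlapped below day 0, with changes of -0.93 ± 0.14 (adjusted p = 0.000848) and -0.88 ± 0.14 (adjusted p = 0.00101). Both subunits are needed for an active enzyme. Gucy1a1 was at 0.390 and Gucy1b1 at 0.527 times the day 0 level on day 1, and at 0.534 and 0.542 times on day 3. The log2 ratio of Gucy1a1 to Gucy1b1, with a day 0 mean of 0, averaged -0.43 on day 1, without overlap with day 0. On day 3 the ratio averaged -0.02 and overlapped day 0. It was not tested and used the brightest probe set of each gene.

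Pln, the brake on the calcium pump of the sarcoplasmic reticulum, was dim, with signals of 117, 201 and 168 on day 0, 67.0, 113 and 60.0 on day 1 and 47.2, 47.0 and 48.6 on day 3. The 3 days did not overlap. It changed by -1.73 ± 0.29 on day 3 (adjusted p = 0.00134) and by -1.04 ± 0.29 on day 1 (adjusted p = 0.0213), and the day 1 call was lost without day 0 replicate 2 or 3 or day 1 replicate 1 (adjusted p 0.068 to 0.0728), under quantile normalization and without the detection filter. Abcc9 and Kcnj8 encode the regulatory and pore subunits of the vascular ATP-sensitive potassium channel. Abcc9 had 4430, 4413 and 5254 on day 0, 3232, 2898 and 3678 on day 1 and 3533, 3475 and 3193 on day 3, so every primed array lay below day 0. It changed by -0.53 ± 0.12 on day 1 (adjusted p = 0.0083) and by -0.46 ± 0.12 on day 3 (adjusted p = 0.0146), the day 3 call being lost without day 0 replicate 3 or day 3 replicate 3 (adjusted p 0.0553 to 0.0654). Kcnj8 ranged from 844 to 1558 on day 0, from 882 to 1296 on day 1 and from 1065 to 1273 on day 3, with changes of -0.12 ± 0.21 and -0.04 ± 0.21 that were not called. The ratio of Abcc9 to Kcnj8 overlapped between all days, so a different change of the 2 channel subunits was not shown.

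The thin filament and its crosslinkers split. Of the 8 tested genes of this role among 11, 1 was higher and 3 were lower on day 1, and 3 were higher and 1 was lower on day 3. On day 3 against day 1, 4 were higher and none was lower, with a median of 0.39. Acta2 had signals of 6449, 7489 and 8179 on day 0, 4809, 6044 and 6296 on day 1 and 9127, 9794 and 8361 on day 3. The days did not overlap, with day 1 lowest and day 3 highest. Acta2 was 0.68 ± 0.13 higher on day 3 than on day 1 (adjusted p = 0.00585), and this call held under all 19 alternatives that gave Acta2 a value, its only tested probe set ending in _s_at. Its difference of -0.37 ± 0.13 on day 1 against day 0 lay at the threshold (adjusted p = 0.0495) and was lost in 12 of the 19, including without day 0 replicate 2 or 3, day 1 replicate 1 or 2 or any day 3 array (adjusted p 0.0611 to 0.179). The difference of 0.31 ± 0.13 between day 3 and day 0 was not called (adjusted p = 0.101).

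Tpm2, a tropomyosin that lies along the actin filament, had 2873, 3841 and 3846 on day 0, 1672, 2302 and 2140 on day 1 and 3579, 3269 and 3089 on day 3. Day 1 lay below both other days, and days 0 and 3 overlapped. It changed by -0.79 ± 0.15 on day 1 (adjusted p = 0.00356) and by -0.08 ± 0.15 on day 3 against day 0 (adjusted p = 0.744), with 0.71 ± 0.15 between days 3 and 1 (adjusted p = 0.0106, lost at 0.0566 without day 3 replicate 1). The day 1 call was lost when the mean of the Tpm2 probe sets was used (adjusted p = 0.108). Tpm1, the other tropomyosin of smooth muscle on the list, had 1978, 2681 and 2490 on day 0, 2370, 2284 and 1990 on day 1 and 3506, 3040 and 2967 on day 3. All day 3 values lay above both earlier days. Its differences of 0.42 ± 0.14 on day 3 against day 0 (adjusted p = 0.0403) and 0.52 ± 0.14 on day 3 against day 1 (adjusted p = 0.0267) were fragile. The first was lost without day 0 replicate 1 or 3 or any day 3 array (adjusted p 0.061 to 0.161) and the second without day 1 replicate 2 or any day 3 array (adjusted p 0.0503 to 0.122). Using the mean of the Tpm1 probe sets ended both, median centring ended the second, and the first was also lost without the detection filter, without the variance trend and with the replicate number as a block.

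Cald1, caldesmon, which restrains actomyosin, was higher on both days. It had 5514, 7235 and 6420 on day 0, 11866, 9063 and 8426 on day 1 and 9786, 11176 and 10405 on day 3. Every primed array lay above every day 0 array, with changes of 0.61 ± 0.14 on day 1 (adjusted p = 0.00899) and 0.72 ± 0.14 on day 3 (adjusted p = 0.00339), that is 1.52 and 1.64 times the day 0 level. The day 3 call was lost when probe sets with names ending in _x_at or _s_at were left out (adjusted p = 0.0941). The gene also makes a non-muscle isoform, and its probe sets were not separated by isoform. Smtn, smoothelin, had 348, 261 and 289 on day 0, 303, 193 and 192 on day 1 and 500, 488 and 427 on day 3. All day 3 values lay above both other days, by 1.07 ± 0.19 against day 1 (adjusted p = 0.00469) and by 0.66 ± 0.19 against day 0 (adjusted p = 0.0273). The call against day 0 was lost without day 0 replicate 2 or 3 or day 3 replicate 1 or 2 (adjusted p 0.0765 to 0.0938).

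Synpo2, an actin bundling protein of the Z-disc and dense bodies, was the only thin filament gene that was lower on both days. It had 543, 594 and 893 on day 0, 233, 371 and 485 on day 1 and 338, 253 and 319 on day 3, with no overlap with day 0 on either day. The changes were -0.93 ± 0.26 on day 1 (adjusted p = 0.0232) and -1.13 ± 0.26 on day 3 (adjusted p = 0.00884), and the day 1 call was lost without day 0 replicate 3 or day 1 replicate 1 (adjusted p 0.0815 to 0.0979). Tagln (SM22 alpha, an actin binding protein) ranged from 2596 to 3961 on day 0, from 2417 to 3393 on day 1 and from 2509 to 2917 on day 3. Its days overlapped, and its changes of -0.27 ± 0.17 and -0.35 ± 0.17 were not called. Flna, filamin A, which crosslinks actin in most cells, ranged from 3175 to 3364 on day 0, from 2656 to 3247 on day 1 and from 3185 to 3990 on day 3, with changes of -0.16 ± 0.12 and 0.10 ± 0.12 that were not called.

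Actin and myosin signals were also set against each other within each array. The log2 ratio of Acta2 to Myh11, set to a mean of 0 on day 0, was 0.02, -0.03 and 0.01 on day 0, 0.49, 1.20 and 0.50 on day 1 and 1.81, 2.40 and 2.17 on day 3. The days did not overlap. The ratio of Acta2 to Myl9 averaged 0.78 ± 0.09 on day 1 and 1.52 ± 0.11 on day 3 (SD, n = 3 each) on the same footing, again with no overlap. These ratios are descriptions of the levels already given and were not tested.

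The genes that mark pericytes did not move as a group. Of 6, 5 were tested, 1 was higher and 2 were lower on day 1, and 2 were higher and 1 was lower on day 3. Mcam (CD146), an adhesion molecule of pericytes, smooth muscle and endothelium, had 487, 495 and 527 on day 0, 967, 589 and 668 on day 1 and 1379, 1676 and 1684 on day 3. The 3 days did not overlap, and day 3 was at 3.13 times the day 0 level. Mcam was 1.65 ± 0.17 higher on day 3 than on day 0 (adjusted p = 5.87e-05) and 1.12 ± 0.17 higher than on day 1 (adjusted p = 0.00191), and both calls held in all 20 alternatives. Its difference of 0.53 ± 0.17 on day 1 (adjusted p = 0.0412) was lost in 11 of 20 alternatives, among them the omission of any day 0 or day 3 array or of day 1 replicate 1 (adjusted p 0.0523 to 0.146).

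Rgs5, a regulator of G protein signaling and a widely used pericyte marker, had 9290, 14534 and 12315 on day 0, 8753, 9306 and 6584 on day 1 and 8652, 8895 and 7561 on day 3. Day 0 replicate 1 lay close to the primed arrays. The changes of -0.54 ± 0.17 on day 1 (adjusted p = 0.0323) and -0.50 ± 0.17 on day 3 (adjusted p = 0.0457) were lost without day 0 replicate 2 or 3 and, on day 1, without day 1 replicate 1 or 3 (adjusted p 0.0543 to 0.101) or, on day 3, without any day 3 array (adjusted p 0.0831 to 0.161). Both Rgs5 calls were also lost under median centring of the arrays, without the detection filter, without the variance trend and on a dimmer Rgs5 probe set ending in _x_at. The day 1 call was lost as well with the mean of the Rgs5 probe sets and with only the 6 arrays compared. Pdgfrb, the receptor through which PDGF-B recruits pericytes to vessels and which fibroblasts also carry, had 3056, 3395 and 4454 on day 0, 2451, 2524 and 2733 on day 1 and 4238, 4253 and 3734 on day 3. Day 1 lay below both other days. It changed by -0.48 ± 0.14 on day 1 (adjusted p = 0.0236) and was 0.66 ± 0.14 higher on day 3 than on day 1 (adjusted p = 0.00915), whereas day 3 against day 0 gave 0.18 ± 0.14 (adjusted p = 0.361). The day 1 call was lost without day 0 replicate 3 or day 1 replicate 1 or 2 (adjusted p 0.0604 to 0.09), under median centring and with only the 6 arrays compared.

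Higd1b, a mitochondrial protein that marks pericytes in single-cell atlases, ranged from 203 to 337 on day 0, from 149 to 253 on day 1 and from 177 to 323 on day 3, with no call. Ndufa4l2, a mitochondrial protein of pericytes that is also induced by hypoxia, was called absent on all day 0 arrays, with signals of 205, 186 and 224. It had 354, 182 and 334 on day 1, where 2 of 3 arrays were called present, and 278, 419 and 448 on day 3, where all 3 were. By the measured signals, day 3 was 1.83-fold higher than day 0 (adjusted p = 0.0285), with the day 0 level itself undetected. The call was lost without any day 0 array or day 3 replicate 2 or 3 (adjusted p 0.0547 to 0.0999), and without the detection filter. Cspg4 (NG2) on its brighter probe set had 155, 153 and 169 on day 0, 92.9, 116 and 150 on day 1 and 232, 220 and 188 on day 3, with 2, 0 and 2 present calls on days 0, 1 and 3. On that probe set day 1 was lowest and day 3 highest without overlap, but Cspg4 was not tested. The dimmer Cspg4 probe set was present on no array. There day 1 was again lowest, but day 0 (115, 195 and 219) and day 3 (178, 171 and 186) overlapped.

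The last role held the intermediate filament and the regulators. Mustn1, a small nuclear protein of the musculoskeletal system, had 1011, 1527 and 1519 on day 0, 716, 848 and 763 on day 1 and 653, 479 and 439 on day 3. The 3 days did not overlap. It changed by -1.36 ± 0.19 on day 3 (adjusted p = 0.00042) and by -0.78 ± 0.19 on day 1 (adjusted p = 0.0122), the day 1 call being lost at 0.0557 without day 0 replicate 3. Myocd, myocardin, was near the detection limit, with signals of 106, 81.4 and 106 on day 0, 21.9, 44.8 and 54.8 on day 1 and 37.0, 3.58 and 47.0 on day 3. All day 0 arrays were called present, 1 of 3 was on day 1 and none was on day 3. The mean signal was 29.2 ± 22.8 on day 3, where Myocd was undetected, and 97.8 ± 14.2 on day 0 (SD, n = 3 each), and the day 3 call against day 0 had an adjusted p of 0.0434 in limma. It was lost without any day 0 array, day 1 replicate 2 or day 3 replicate 2 (adjusted p 0.0553 to 0.109), and without the detection filter or the variance trend. Des, desmin, ranged from 438 to 454 on day 0, from 438 to 534 on day 1 and from 520 to 543 on day 3. The day 3 arrays lay above all day 0 arrays, but the difference of 0.26 ± 0.12 was not called (adjusted p = 0.145).

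Cnn1, Lmod1 and Actg2, which encode calponin, leiomodin and the gamma actin of visceral smooth muscle, stayed near the detection limit. Cnn1 had 137, 151 and 142 on day 0, with 2 present calls, 15.8, 58.5 and 259 on day 1 and 69.8, 64.9 and 84.9 on day 3, with none. Lmod1 was called absent on all 9 arrays, with signals from 68.5 to 127 on day 0, 58.7 to 85.1 on day 1 and 6.59 to 48.1 on day 3. Actg2 ranged from 152 to 214 on day 0, from 134 to 280 on day 1 and from 170 to 181 on day 3.

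**Figure D3:**
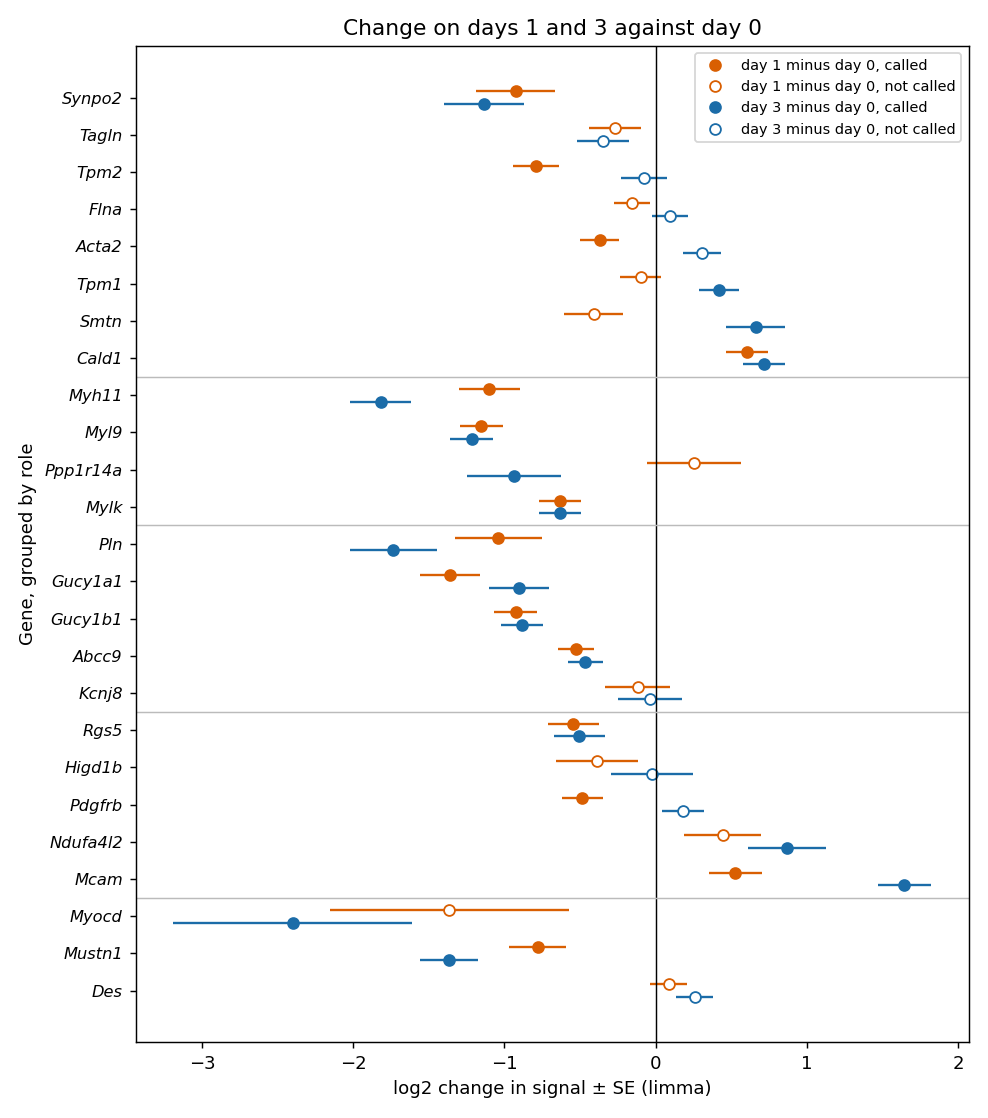
Log2 change of the 25 tested genes on day 1 (orange) and day 3 (blue) against day 0, with SE from limma; filled points were called at an adjusted p under 0.05 and open points were not. Genes are grouped by role as in the map of log2 signals. Myosin and relaxation genes lie left of 0 apart from Ppp1r14a on day 1, whereas thin filament and pericyte genes lie on both sides.

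Of the tested genes, 11 had at least 2 probe sets that passed the same filter, 31 probe sets in all. On day 1 against day 0, 29 of the 31 changed in the direction of the gene's brightest probe set, and so did 29 of 31 on day 3. Both counts include the 11 brightest probe sets themselves, which agree by definition. The exceptions on day 1 were 1 probe set each of Tpm1 and Tpm2, and on day 3 both belonged to Tpm2. The Tpm2 probe set whose name ends in _x_at, a suffix that warns of cross-hybridization, had 79.2, 140 and 137 on day 0, 105, 196 and 125 on day 1 and 206, 306 and 223 on day 3. It was 1.07 ± 0.29 higher on day 3 than on day 0 (adjusted p = 0.0209 over all probe sets tested). The brightest Tpm2 probe set was not called there (-0.08 ± 0.15). For Gucy1a1, the dimmer probe sets changed less on day 3, by -0.38 ± 0.16 (adjusted p = 0.112) and -0.07 ± 0.26 (adjusted p = 0.88).

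**Figure D4:**
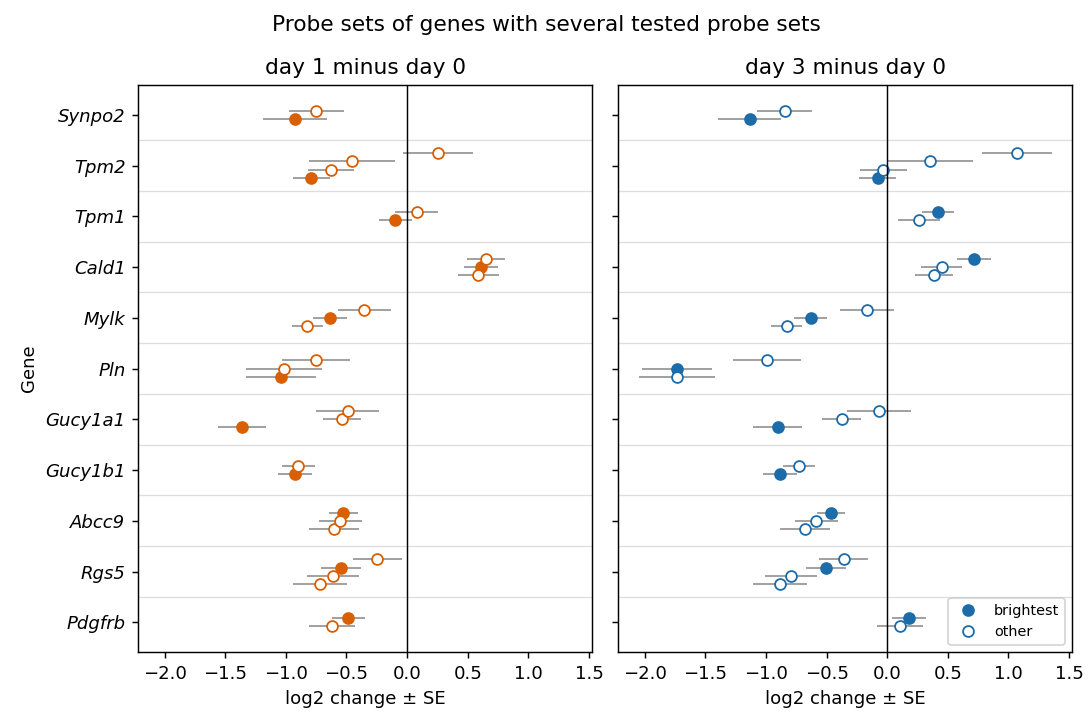
Log2 change against day 0, with SE, of every tested probe set of the 11 genes that had several, on day 1 (left) and day 3 (right). Filled points are the brightest probe set of the gene and open points the others; they fall on the same side of 0 in all genes but Tpm1 on day 1 and Tpm2 on both days.

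Other genes of the contractile apparatus were read from lists chosen by function. For this and every list below, the shares of all tested genes called higher and lower were 10.8% and 17.9% on day 1. They were 13.6% and 12.5% on day 3, and 9.67% and 4.54% on day 3 against day 1. A count near these shares does not set a list apart from the array. Of 38 other contractile and serum response factor regulated cytoskeletal genes, 34 were tested. The counts were 2 higher and 10 lower on day 1, at a median change of -0.26, and 6 higher and 5 lower on day 3, at a median change of 0.08. On day 3 against day 1, 10 were higher and none was lower. Fhl1, a LIM protein of muscle, was lower on day 1 (-1.20 ± 0.11, adjusted p = 2.08e-05), as were Tns1 (-0.98 ± 0.15) and Sorbs2 (-0.94 ± 0.16), which link actin to adhesions. On day 3, Fhl2 (1.12 ± 0.14, adjusted p = 0.000167) and Pdlim7 (1.11 ± 0.17) were higher and Pdlim3 (-1.08 ± 0.20) was lower than on day 0. Pdlim3 was present on all 3 arrays of day 0 and on no array of day 3. It thus entered the test only through the day where it was brightest.

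Of 28 smooth muscle channels, receptors and second messenger genes, 17 were tested, and 1 was higher and 4 were lower on day 1, against 1 and 7 on day 3. Ptger3, a prostaglandin E2 receptor, changed most, by -1.58 ± 0.24 on day 1 (adjusted p = 0.000891) and -1.29 ± 0.24 on day 3 (adjusted p = 0.00282). Irag1, which carries the cyclic GMP signal to calcium release, was lower on day 1 (-1.01 ± 0.19, adjusted p = 0.00355), and so was the thromboxane receptor Tbxa2r (-0.56 ± 0.15). Tbxa2r was present on all 3 arrays of day 0 alone, so it entered the test only through the day where it was brightest. The calcium store protein Casq2 (-1.04 ± 0.33, adjusted p = 0.0354) and the ATP-gated channel P2rx1 (-0.89 ± 0.23) were lower on day 3.

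Of 25 other pericyte and mural cell genes, 24 were tested. None was higher and 12 were lower on day 1, and 2 were higher and 10 lower on day 3, with medians of -0.51 and -0.49. The transcription factor Ebf2 changed by -1.12 ± 0.16 on day 1 and -1.06 ± 0.16 on day 3, and the integrin Itga8 by -1.08 ± 0.22 on both days. Tbx2 was lower on day 1 (-1.04 ± 0.31, adjusted p = 0.0279) and the aminopeptidase Enpep, a pericyte ectoenzyme, on day 3 (-1.12 ± 0.13, adjusted p = 0.000139).

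Genes of other cells moved too. The summed signal of the 25 tested contractile and pericyte genes was 53728 to 69502 on day 0, 48682 to 52085 on day 1 and 55859 to 61547 on day 3. Of 20 endothelial genes, all tested, 13 were lower on day 1 and 6 on day 3, with summed signals of 41527 to 56851 on day 0, 32160 to 34412 on day 1 and 38941 to 46106 on day 3. Vwf (-1.38 ± 0.26), Ptprb (-1.35 ± 0.20) and Sox17 (-1.09 ± 0.14) were the most changed on day 1, and on day 3 Ptprb (-1.14 ± 0.20) and Vwf (-0.93 ± 0.26) were lower whereas Cd93 (0.94 ± 0.14) was higher. Endothelium is the layer that pericytes cover, and the part of a change in vessel cells as a whole in the contractile signals was not tested.

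Of 18 activated fibroblast and matrix genes, 5 were higher and 8 lower on day 1, and 11 were higher and none lower on day 3. Their summed signals were 160972 to 174414 on day 0, 138653 to 152761 on day 1 and 212043 to 234739 on day 3. Cthrc1 (2.45 ± 0.17 on day 1 and 4.94 ± 0.17 on day 3) and Timp1 (3.77 ± 0.21 and 4.07 ± 0.21) were higher on both days, with Ccn2 on day 1 (1.65 ± 0.21) and Lrrc15 on day 3 (4.08 ± 0.28). Acta2, Tpm1, Tpm2, Smtn, Pdgfrb and Mcam were higher on day 3 than on day 1, as were 15 of the 18 fibroblast genes, and the part of fibroblasts in those contractile gene levels was not tested.

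Skeletal muscle genes were scattered between mice. Of 28, 11 were tested and Tnni2 alone was called (1.35 ± 0.42 on day 1, adjusted p = 0.0337). Tnni2 was present on all 3 arrays of day 1 alone, so it entered the test only through the day where it was brightest. The 11 tested genes had summed signals of 1045 to 2428 on day 0, 1824 to 4426 on day 1 and 1566 to 3042 on day 3. On an array, 9 to 18 of the 28 were called present. Of 16 adipose progenitor genes, 14 were tested; 1 was higher and 2 were lower on day 1, and none was higher and 8 were lower on day 3. Clec3b (-0.91 ± 0.17) and Pparg (-0.66 ± 0.17) were lower and Cxcl12 (0.49 ± 0.12) higher on day 1, and Clec3b (-1.39 ± 0.17), Dpp4 (-0.94 ± 0.17) and Cd55 (-0.84 ± 0.12) were lower on day 3.

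Of 18 leukocyte genes, 17 were tested, with 8 higher and 4 lower on day 1 and 7 higher and 4 lower on day 3. The neutrophil genes S100a8 (6.22 ± 0.33 and 4.11 ± 0.33) and S100a9 (6.11 ± 0.29 and 3.75 ± 0.29) and the integrin Itgam (2.48 ± 0.17 and 1.89 ± 0.17) were higher on both days. The lymphocyte genes Cd3e (-1.40 ± 0.35), Cd3g (-1.07 ± 0.30) and Cd79a (-1.03 ± 0.34) and the macrophage receptor Csf1r (-0.47 ± 0.11) were lower on day 1, and the median change of the list on day 1 was 0.11. Of 14 platelet genes, 7 were tested and 3 were higher on day 1 and 2 on day 3, namely Ppbp (7.35 ± 0.25 and 6.07 ± 0.25) and Pf4 (1.26 ± 0.18 and 1.20 ± 0.18) on both days and P2ry12 (0.63 ± 0.19) on day 1. Ppbp was present on 1 of 3 arrays on day 0, so it entered the test only through days 1 and 3. Of 12 epithelial and myoepithelial genes, 3 were tested and none was called. Summed signals of the 17 tested leukocyte genes were 110764 to 121659 on day 0, 155053 to 201131 on day 1 and 125112 to 138472 on day 3. S100a8 and S100a9 averaged 27062 and 27760 on day 1 and 352 and 397 on day 0, and so made up much of the day 1 sums. The part of leukocytes in the lower contractile signals was not tested.

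**Figure D5:**
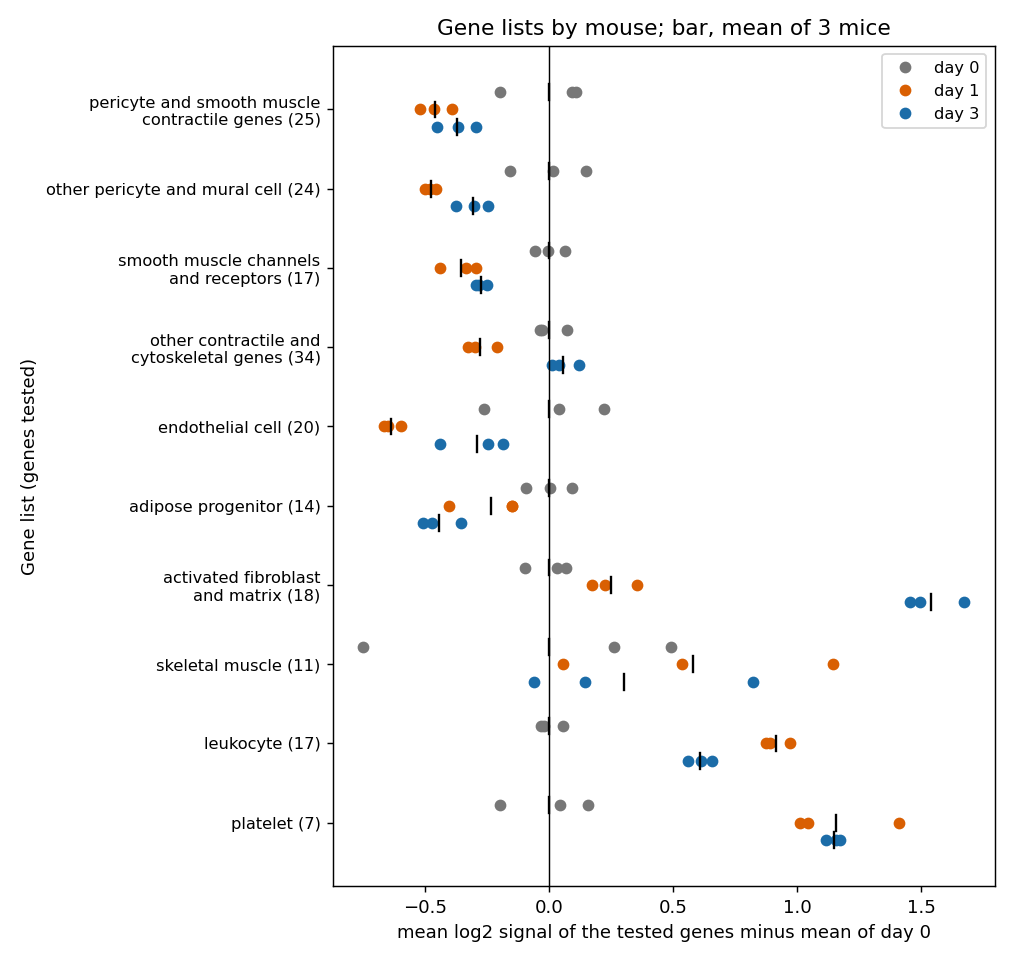
Mean log2 signal of the tested genes of each list on each array, relative to the mean of day 0; points are single mice, bars the mean of 3, and the number of genes tested is given beside each list. The contractile and pericyte list lies at -0.52 to -0.39 on day 1 and -0.45 to -0.30 on day 3, and the other mural and endothelial lists also lie below 0 on both days. The leukocyte mean lies above 0, with S100a8 and S100a9 changed far more than the rest of that list.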

How the data were processed

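The stromal vascular fraction of inguinal fat from 3 mice on each of days 0, 1 and 3 was profiled on Affymetrix Mouse430_2 arrays with 45101 probe sets. The authors computed MAS5 signal intensities (tool named in the submitters' processing notes), which per the deposited files were scaled to a trimmed mean of 500 on each array, with a detection p-value and a present, marginal or absent call from the same algorithm. The version of MAS5 was not given in the sources used here.

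Signals were taken to log2 without an offset. Probe sets with exactly 1 gene symbol (34945; 932 had several and 9160 none) were kept where all 3 arrays of any one day had a present call, and the brightest one, by mean signal over all 9 arrays, stood for its gene. All 11796 genes were fitted with limma 3.58.1 in R 4.3.3 on all 9 arrays with day as the factor, 6 residual degrees of freedom and eBayes with a variance trend. Contrasts were two-sided and p-values were adjusted by the Benjamini-Hochberg method. The scripts were tested on simulated data. There, on day 1 against day 0, 16% of genes given a log2 change of 0.5 and 70% of those given 1 were called. Of the calls, 4.15% were false. A gene without a call was therefore not shown to be unchanged. The methods' filter of a 2-fold change, with an unpaired analysis of variance instead of their repeated-measurements version, and the other settings are given as alternatives. The number of arrays limits the precision.

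Symbols were updated through RefSeq, whose promoters were read on GRCm38.p6. The members, their roles and the other gene lists were chosen with earlier results of these data known. Values on all arrays are given for called genes, ranges for others, and from each other list up to 3 called genes with the largest changes on day 1 and on day 3. Mice of different days were different animals, so no pairing was used. Deviations of same-numbered mice correlated at -0.15 to 0.33.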

Additional observations from a re-analysis of the deposited data

Results flagged for a closer look

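For 8 genes the change on day 3 differed from the change on day 1 by a test of that difference (day 3 against day 1, limma, adjusted p under 0.05). Day 3 lay above day 1 by 0.68 for Acta2, 0.66 for Pdgfrb, 1.12 for Mcam, 1.07 for Smtn, 0.52 for Tpm1 and 0.71 for Tpm2 on the log2 scale. Day 3 lay below day 1 by a log2 change of -0.72 for Myh11 and -1.19 for Ppp1r14a. Both lower calls, and those of Tpm1 and Tpm2, were lost when single arrays were left out, whereas those of Acta2, Pdgfrb, Mcam and Smtn held. A Tpm2 probe set outside the comparisons, with a name ending in _x_at, was 1.07 higher on day 3 than on day 0, where the brightest Tpm2 probe set changed by -0.08.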

How the results depend on the processing

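Counts of called genes are given as higher and lower on day 1 against day 0, on day 3 against day 0 and on day 3 against day 1; they were 2 and 13, 5 and 12, and 6 and 2 as reported. Without the detection filter they were 1 and 10, 3 and 10, and 7 and 1. With only probe sets present on all 9 arrays, which left 23 of the genes, they were 2 and 13, 4 and 11, and 6 and 2. Without a variance trend they were 1 and 11, 4 and 9, and 6 and 1, and with only the 6 arrays compared 1 and 11, 6 and 12, and 6 and 1. Deviations of same-numbered arrays correlated at -0.15 to 0.33. With the replicate number as a block (replicate block) the counts were 1 and 13, 4 and 12, and 6 and 2. At an adjusted p under 0.01 they were 1 and 7, 2 and 8, and 4 and 0. The methods' filter of a 2-fold change was also tried, with an unpaired analysis of variance between days in place of their repeated-measurements version. It gave 0 and 4, 1 and 5, and 2 and 0.

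Median centring gave 2 and 10, 5 and 10, and 5 and 3, and quantile normalization 2 and 12, 5 and 12, and 6 and 3. Median centring moved the median change of the tested genes to -0.36 on day 1 and to -0.042 on day 3 against day 1, and the median of all genes to -0.01 on day 1. Of all genes called on day 1, 62.5% were lower as reported, 42.8% with median centring and 53.6% with quantile normalization; on day 3 against day 1 these shares were 32%, 56.9% and 42.6%.

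Leaving out 1 array gave 1 to 3 higher and 7 to 13 lower genes on day 1, 2 to 5 and 8 to 12 on day 3, and 4 to 6 and 0 to 3 on day 3 against day 1. The median change then ran from -0.57 to -0.44 on day 1, from -0.50 to -0.24 on day 3 and from 0.08 to 0.15 on day 3 against day 1. The lowest day 1 count, 7, came without day 0 replicate 3. Of the single-gene values, 1514 kept their side of the threshold, 174 lost the call, 11 gained a call and 2 changed sign with a call in either fit. Changes of sign between uncalled values were counted among the 1514. Both sign changes with a call were the Tpm2 probe set ending in _x_at, chosen after seeing the data, with 0.25 on day 1 and 1.07 on day 3. The cause of these differences was not tested. Dim genes such as Pln, Myocd and Ndufa4l2 lie close to the detection limit of the arrays.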
